A study of Mus musculus with 12 samples.

Results

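The replication-dependent histone genes are the 67 protein-coding genes of the count table whose GENCODE M21 mouse symbols begin with Hist1h, Hist2h, Hist3h or Hist4h. They were found by symbol among 55401 gene identifiers, by a rule that uses no expression value. The symbol pattern matched 70 genes, of which 3 are annotated as pseudogenes and were left out (Hist1h2aj, Hist1h2al and Hist3h2bb-ps). By the histone they encode, 6 are H1 genes, 18 are H2A genes, 18 are H2B genes, 12 are H3 genes and 13 are H4 genes. By position on the GRCm38 build, 54 lie in the Hist1 cluster on chromosome 13, 10 in Hist2 on chromosome 3, 2 in Hist3 on chromosome 11, and Hist4h4 stands alone on chromosome 6.

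The study sequenced RNA from primary cultures of the subventricular zone of CD1 mice, the germinal layer along the lateral ventricle, in 3 groups of 4 libraries each. Postnatal oligodendrocyte precursor cells (OPC) were derived from neurospheres of pups at postnatal days 0 to 2, which were dissociated and kept for 2 days as a monolayer in medium with PDGF-AA and FGF (each at 10 ng/mL). Adult neural stem cells (NSC) came from mice aged 2 months and postnatal NSC from pups at days 0 to 2, and both were grown for 6 to 7 days as floating neurospheres in medium with EGF (20 ng/mL), heparin (2 ug/mL) and FGF at the same dose as the OPC. All media were serum-free with 2% B27, no genetic change or other treatment is given in the labels, and the replicates came from 4 independent litters. The OPC comparisons therefore differ in culture form, growth factors and time in culture as well as in cell type, which cannot be told apart.

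Histones package DNA into nucleosomes, built of H2A, H2B, H3 and H4 around which DNA is wound, while the linker histone H1 binds where DNA enters and leaves. The replication-dependent genes supply the bulk of this protein during S phase. Their mRNAs mostly carry no poly(A) tail: the transcript is cut just after a conserved stem-loop that the stem-loop binding protein SLBP recognises, and the mRNA is degraded when DNA synthesis stops. Replication-independent variants such as H3f3a and H2afz are ordinary polyadenylated mRNAs made throughout the cell cycle. The libraries were made with a kit that selects polyadenylated RNA, so the levels below are of histone transcripts that entered such libraries, and not of all histone mRNA.

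The stem-loop sequence that separates these genes from other mRNAs was read from the GENCODE M21 transcripts. A match to the histone stem-loop consensus of 16 bases lay after the stop codon in 45 of the 67 genes (67.2%), beginning 21 to 58 bases past the stop with a median of 31. Across the annotation, 67 of 21866 protein-coding genes (0.306%) held a match anywhere in a transcript. Of those, 46 were histone genes of this set and 21 were other genes, one of which was the variant gene H2afx. The 45 genes held 8 distinct sequences, written here as DNA in the sense direction, with the 4 bases of the loop in capitals between the 2 arms of the stem.
Hist1h1c, Hist1h1d, Hist1h1e and 22 genes of H2A, H2B and H3: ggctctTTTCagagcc
Hist1h4h, Hist1h4c and 5 other H4 genes: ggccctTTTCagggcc
Hist1h2bk, Hist1h3c and 4 others: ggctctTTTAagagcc
Hist1h4i and Hist2h4: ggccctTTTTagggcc
Hist1h4j and Hist1h4b: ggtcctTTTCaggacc
Hist1h4a: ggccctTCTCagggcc
Hist1h3g: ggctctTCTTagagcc
Hist2h2ac: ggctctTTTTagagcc
The H4 genes with a match all carried a stem other than that shared by the H1, H2A, H2B and H3 genes. Of the 22 genes with no match, 15 had an annotated transcript that ends under 24 bases after the stop codon, so the annotation does not reach the place where the stem-loop would lie.

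Histone transcripts were a small share of every library. Library totals ran from 38928989 to 54801726 counts in postnatal NSC. They ran from 17226501 to 23651396 in postnatal OPC and from 16756231 to 20064043 in adult NSC. Sequencing depth thus went with the group, and every postnatal NSC library was deeper than every OPC and adult library. At equal depth, one of the alternatives below, the counts of falls stayed within 1.5 times of those of the main fit. The share of the 67 genes in a library total was between 0.0107% and 0.0426%. In CPM, that is, counts scaled to a common library size after TMM normalisation, the summed level of all 67 genes was 123, 179, 148 and 107 CPM in postnatal OPC. It was 140, 131, 118 and 124 CPM in adult NSC, and 284, 297, 415 and 285 CPM in postnatal NSC. Every OPC and adult library lay below every postnatal NSC library, and OPC and adult libraries overlapped. The group means were 139 ± 31.3 CPM in postnatal OPC, 128 ± 9.29 CPM in adult NSC and 320 ± 63.6 CPM in postnatal NSC (SD, n = 4 each). The sum was thus 2.30-fold lower in OPC and 2.50-fold lower in adult NSC than in postnatal NSC. In bulk RNA, fewer cells expressing a gene and less RNA per cell cannot be told apart. The 11 replication-independent histone genes summed to 2922 ± 205 CPM in postnatal OPC, 2376 ± 58.7 CPM in adult NSC and 2890 ± 500.4 CPM in postnatal NSC (SD, n = 4 each).

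**Figure D1:**
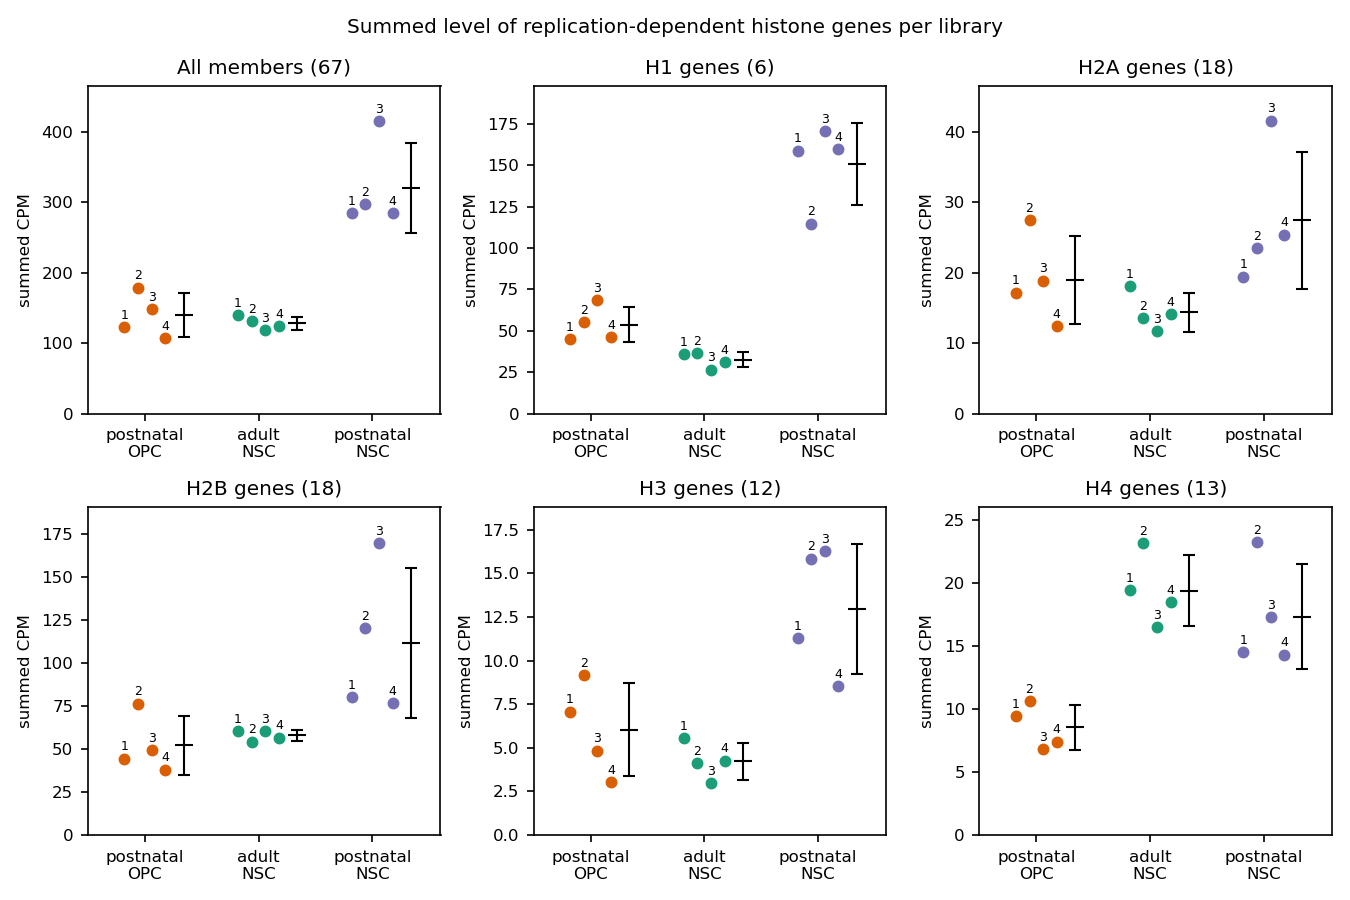
Summed CPM of all 67 replication-dependent histone genes and of each class in each library (points, numbered by replicate), with the group mean and SD (bars); the axes start at 0. The H1 sum lies between 26.6 and 68.4 CPM in the OPC and adult libraries and between 115 and 171 CPM in postnatal NSC, whereas the H4 sum of adult NSC (16.5 to 23.2 CPM) overlaps that of postnatal NSC (14.3 to 23.2 CPM).

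Of the 67 genes, 43 had enough counts to be tested among 16135 genes. Of the 24 that were not tested, 3 had no count in any library (Hist1h2aa, Hist2h2aa1 and Hist2h3c1), and the other 21 had mean levels of at most 0.387 CPM over the 12 libraries. Among the 43 genes, 32 fell and none rose in postnatal OPC against postnatal NSC at an adjusted p under 0.05 (edgeR quasi-likelihood test, Benjamini-Hochberg over all genes tested), where 22.7% of all genes tested fell. In adult NSC against postnatal NSC, 30 fell and 1 rose, where 27.9% of all genes tested fell and 25.2% rose. In postnatal OPC against adult NSC, 5 fell, 3 rose and 35 did not pass, where 24.7% of all genes tested fell and 26.3% rose. The median log2 fold changes were -1.43, -1.40 and 0.23 in these comparisons, beside -0.01, -0.03 and 0.01 over all genes tested. The comparisons with postnatal NSC share those 4 libraries. All 4 OPC libraries were below all 4 postnatal NSC libraries for 27 genes, which held for 16.9% of all genes tested. The same was so of adult against postnatal NSC for 25 genes (26.0% of all genes tested) and of OPC against adult NSC for 5 genes (28.7%). In either direction, 45.1%, 53.1% and 51.0% of all genes tested passed in these comparisons.

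The filter on low counts bears on these numbers, because 19 of the 43 genes reached its level of 0.481 CPM in under 4 libraries outside postnatal NSC and so were tested only through the group in which they were high. Among the other 24 genes, 18 fell and none rose in OPC, and 16 fell and 1 rose in adult NSC, each against postnatal NSC. These 24 include Hist1h2bf and Hist1h3g, which reached the level in no OPC library. For them the filter favoured a fall in OPC against either NSC group. With no filter, 64 genes were tested, of which 34 fell in OPC and 32 in adult NSC against postnatal NSC. The 21 counted genes below the filter leaned the same way without a test: the mean level of 17 was lower in OPC and that of 19 was lower in adult NSC than in postnatal NSC.

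**Figure D2:**
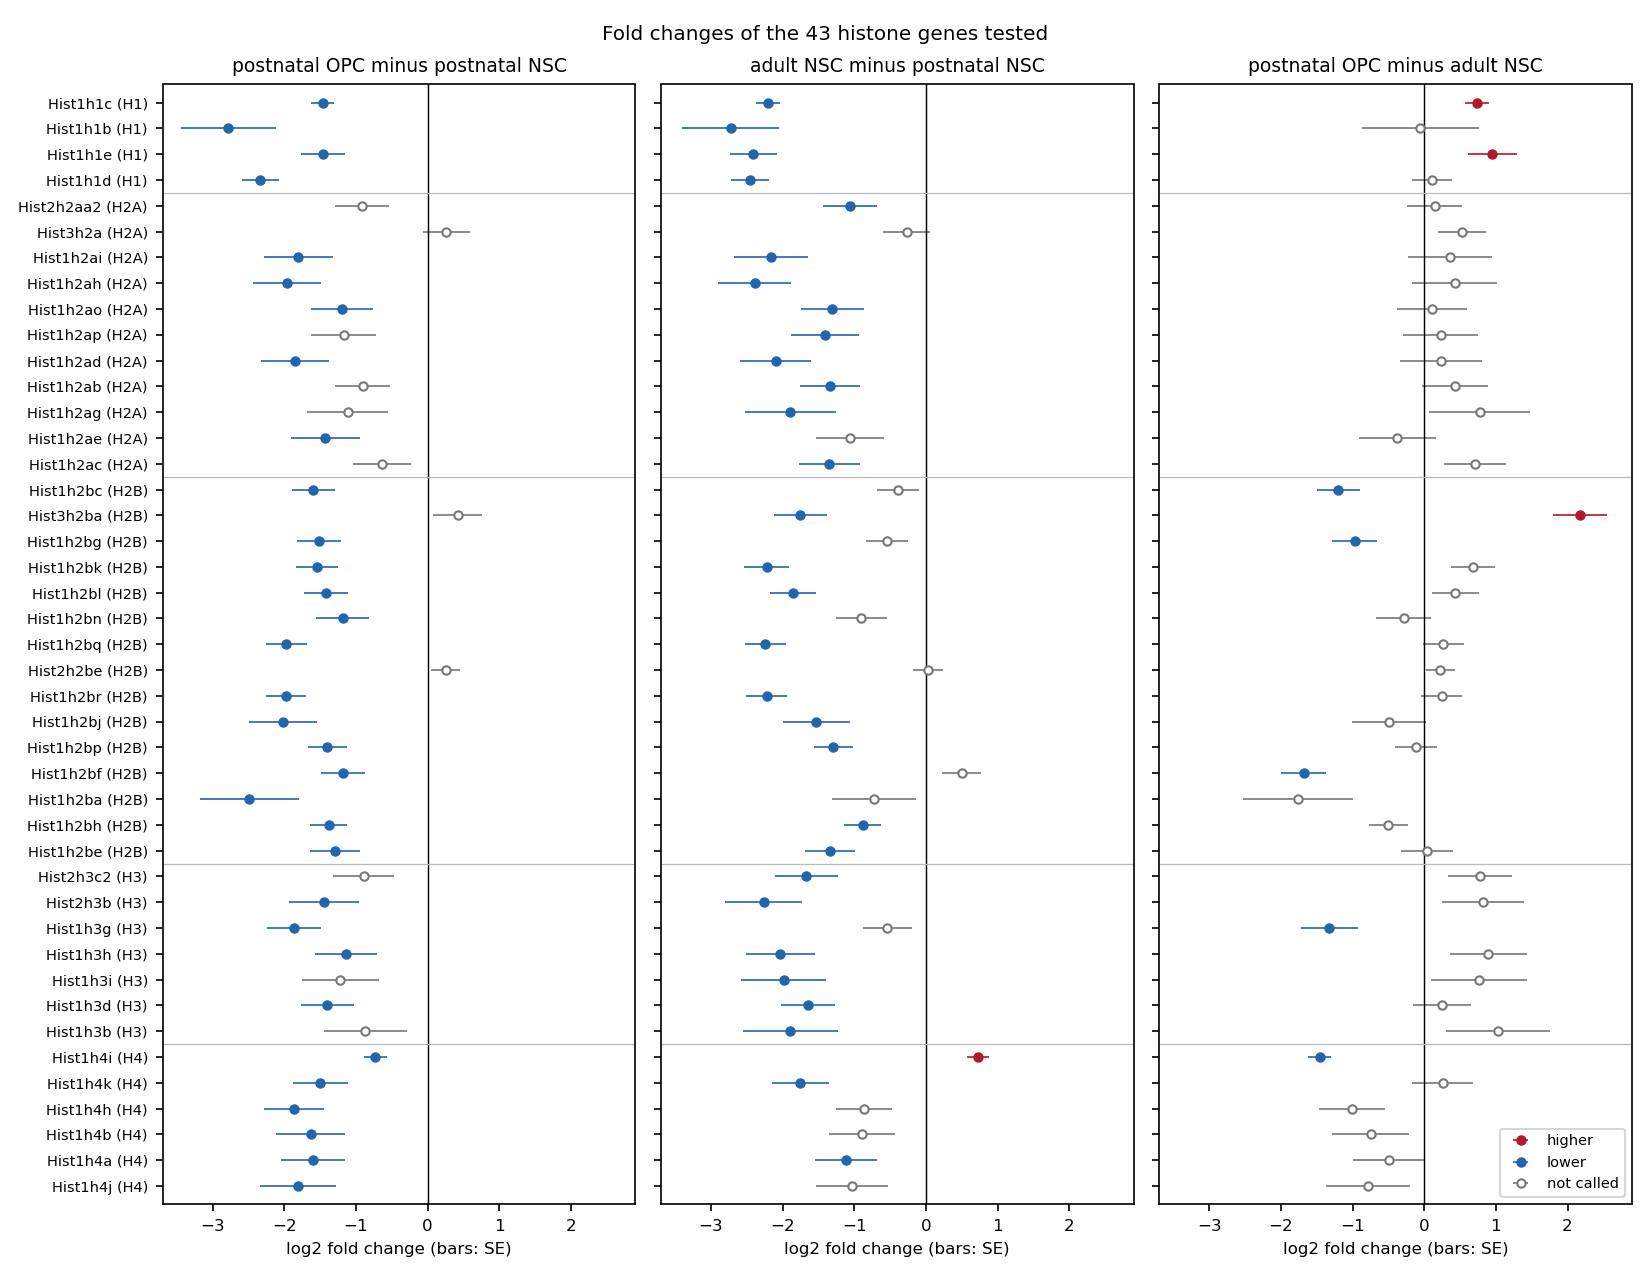
Log2 fold change of the 43 tested histone genes in 3 comparisons, in rows by class and by level per kb within it; points are estimates, bars are standard errors, and filled points passed an adjusted p under 0.05 (edgeR). Most points of the first 2 panels lie left of 0, with 32 and 30 called lower, while the panel of OPC against adult NSC has 5 called lower and 3 called higher.

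The linker histone genes fell together. All 4 tested H1 genes, of which Hist1h1b was tested only through its level in postnatal NSC, were lower in both OPC and adult NSC than in postnatal NSC, with no overlap of libraries, by a margin of under 0.01 CPM for Hist1h1b in adult NSC. The leading one was Hist1h1c (ENSMUSG00000036181.2, chr13:23738808-23740367, plus strand), a somatic linker histone gene that held 38.1% of the summed CPM of the whole set and 94.5% of that of the H1 genes. Its level was 42.9, 52.0, 66.0 and 44.6 CPM in postnatal OPC, 33.7, 34.5, 25.0 and 30.0 CPM in adult NSC, and 152, 106, 158 and 151 CPM in postnatal NSC. Each OPC library was above each adult library and below each postnatal NSC library. The log2 fold change was -1.47 ± 0.16 in OPC (SE, adjusted p = 3.35e-05) and -2.20 ± 0.17 in adult NSC (adjusted p = 2.58e-06) against postnatal NSC, and 0.74 ± 0.16 in OPC against adult NSC (adjusted p = 0.00264). Without Hist1h1c, the summed level of the other 66 genes was 88.0 ± 27.4 CPM in postnatal OPC, 97.5 ± 5.79 CPM in adult NSC and 178 ± 59.4 CPM in postnatal NSC (SD, n = 4 each), and the non-overlap with postnatal NSC remained.

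The other tested linker genes were far lower in level. Hist1h1d had 0.629, 0.856, 1.04 and 0.673 CPM in postnatal OPC, 0.928, 0.883, 0.563 and 0.555 CPM in adult NSC, and 3.01, 4.07, 4.81 and 4.27 CPM in postnatal NSC. It was lower by a log2 fold change of -2.34 ± 0.26 in OPC and of -2.45 ± 0.26 in adult NSC (adjusted p = 3.05e-05 and 2.86e-05). Hist1h1b had 0.144 to 0.290 CPM in OPC, from 3 to 6 counts a library, 0.052 to 0.546 CPM in adult NSC, and 0.546 to 3.36 CPM in postnatal NSC. Its log2 fold changes were the largest falls of both comparisons, -2.78 ± 0.66 and -2.72 ± 0.68 (adjusted p = 0.0048 and 0.0052). They rest on these few counts and on a gene that reached the filter's level in no OPC library and in 1 adult library, so a fall was favoured by the filter. Hist1h1e had 0.92, 1.92, 1.10 and 0.673 CPM in postnatal OPC, 0.655, 0.624, 0.675 and 0.432 CPM in adult NSC, and 2.88, 3.12, 4.18 and 2.58 CPM in postnatal NSC. It fell in both comparisons (log2 fold change -1.46 and -2.41, adjusted p = 0.00211 and 0.000138). It was also called higher in OPC than in adult NSC (0.95 ± 0.34, adjusted p = 0.034), where 1 pair of libraries overlapped and the call was lost without OPC replicate 2 or 3 or any 1 of the adult replicates. Hist1h1e shares 496 bases of exon on the same strand with Hist1h2be, and the counting of reads there is not given in the sources used here. The remaining pair, Hist1h1a and the testis linker gene Hist1h1t, were not tested, with mean levels of at most 0.313 CPM in a group.

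H2B genes were the largest class by summed level in adult NSC and the second largest in the other groups, at 52.0 ± 16.9 CPM in postnatal OPC, 57.9 ± 2.99 CPM in adult NSC and 112 ± 43.4 CPM in postnatal NSC (SD, n = 4 each). Of 15 tested H2B genes, 13 fell in OPC and 9 in adult NSC against postnatal NSC, and none rose. Of the 13 that did not pass the filter through postnatal NSC alone, 11 fell in OPC and 8 in adult NSC. Hist1h2bc (ENSMUSG00000018102.5, chr13:23684199-23692908, plus strand) had the second highest level per kb of exon of the set. It had 8.76, 15.9, 12.7 and 8.17 CPM in postnatal OPC, 27.8, 25.8, 23.98 and 27.3 CPM in adult NSC, and 22.8, 35.7, 57.6 and 21.6 CPM in postnatal NSC. The OPC libraries lay below all the others, and the adult libraries lay within the range of postnatal NSC. The log2 fold change was -1.59 ± 0.30 in OPC against postnatal NSC (adjusted p = 0.00117), -0.39 ± 0.29 in adult NSC against postnatal NSC (adjusted p = 0.273) and -1.20 ± 0.30 in OPC against adult NSC (adjusted p = 0.00562).

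Hist1h2bg and Hist1h2bf, also H2B genes of the Hist1 cluster, had the same order of calls. Hist1h2bg had 1.98, 4.48, 3.63 and 1.87 CPM in postnatal OPC, 6.49, 5.35, 6.42 and 5.24 CPM in adult NSC, and 6.68, 9.33, 12.4 and 5.91 CPM in postnatal NSC. It was lower in OPC than in postnatal NSC (log2 fold change -1.51 ± 0.31, adjusted p = 0.00174) and than in adult NSC (-0.97 ± 0.31, adjusted p = 0.0198), but the second call was lost without OPC replicate 1 or 4. Hist1h2bf had 0.242, 0.367, 0.231 and 0.288 CPM in postnatal OPC, 1.04, 0.676, 1.18 and 0.802 CPM in adult NSC, and 0.795, 0.754, 0.501 and 0.547 CPM in postnatal NSC. Its OPC libraries were below all 8 others, with log2 fold changes of -1.18 ± 0.30 against postnatal NSC and -1.68 ± 0.31 against adult NSC (adjusted p = 0.00741 and 0.000788). No OPC library of Hist1h2bf reached the filter's level of 0.481 CPM, so the filter favoured both falls. The adult value of Hist1h2bf was not lower than the postnatal one (0.50 ± 0.27, adjusted p = 0.138).

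Hist1h2br and Hist1h2bq fell in both OPC and adult NSC against postnatal NSC. Hist1h2br had 2.54 to 3.71 CPM in postnatal OPC, 2.23 to 2.98 CPM in adult NSC, and 6.81 to 18.9 CPM in postnatal NSC. Its log2 fold changes were -1.98 ± 0.28 and -2.22 ± 0.29 (adjusted p = 0.000165 and 9.54e-05). The 2 genes held 2606 and 2597 counts in all and differed by at most 3 counts in a library, while Hist1h2bq shares 97.3% of its 50-base stretches with other genes, so they are not separate measurements. Counting such near-identical copies once left 31 of 41 genes lower in OPC and 28 of 41 lower in adult NSC.

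Hist3h2ba (ENSMUSG00000056895.4, chr11:58948920-58949533, plus strand) had the opposite order of calls from Hist1h2bc. Its level was 9.44, 25.4, 9.97 and 7.49 CPM in postnatal OPC, 2.46, 3.22, 3.32 and 2.59 CPM in adult NSC, and 8.30, 10.4, 13.6 and 6.91 CPM in postnatal NSC. The adult libraries were below all 8 others, and OPC overlapped postnatal NSC. The log2 fold change was 2.17 ± 0.37 in OPC against adult NSC (adjusted p = 0.000445), the largest rise in that comparison. It was -1.75 ± 0.37 in adult NSC against postnatal NSC (adjusted p = 0.00195) and 0.42 ± 0.34 in OPC against postnatal NSC (adjusted p = 0.339). Without OPC replicate 2, which had the highest value, the last of these was -0.16.

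Hist2h2be (ENSMUSG00000068854.7, chr3:96221119-96223738, plus strand), named here after its values were seen, encodes an H2B variant described in olfactory neurons of the mouse. It had 8.47, 8.89, 8.76 and 6.63 CPM in postnatal OPC, 6.93, 7.07, 6.87 and 7.16 CPM in adult NSC, and 5.41, 6.63, 10.2 and 5.24 CPM in postnatal NSC. The 3 groups overlapped, and no comparison passed (log2 fold change 0.25 ± 0.20 in OPC and 0.03 ± 0.20 in adult NSC against postnatal NSC, adjusted p = 0.327 and 0.916). It was called higher in OPC without postnatal NSC replicate 3 (0.50 ± 0.15, adjusted p = 0.0146). It shared no 50-base stretch with another gene.

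**Figure D3:**
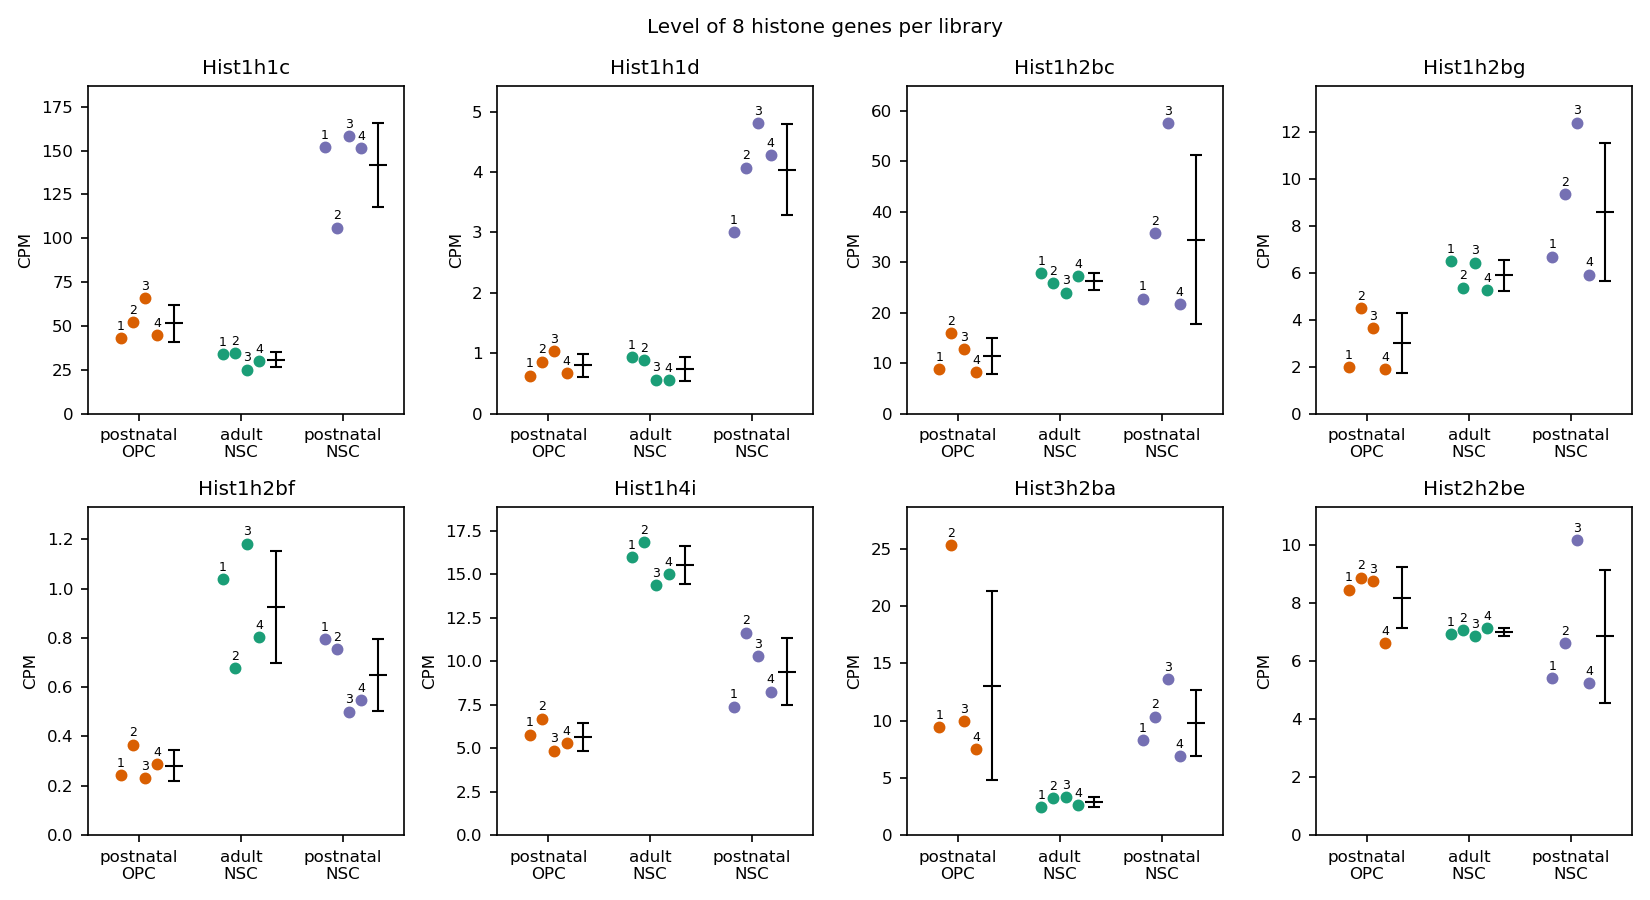
CPM of 8 histone genes in each library (points, numbered by replicate), with the group mean and SD (bars); the axes start at 0. Hist1h1c and Hist1h1d are low in both OPC and adult NSC, Hist1h2bc, Hist1h2bg and Hist1h2bf are low in OPC, Hist1h4i is highest in adult NSC, Hist3h2ba is low in adult NSC, and the groups overlap for Hist2h2be.

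Hist1h2ba and Hist1h2bj had large fitted falls in OPC, but both passed the filter only through postnatal NSC, which favours a fall. The first, a testis-specific H2B gene, had 0.0576 to 0.192 CPM in postnatal OPC (1 to 4 counts), 0.104 to 0.982 CPM in adult NSC, and 0.273 to 0.912 CPM in postnatal NSC. Its log2 fold change was -2.49 ± 0.69 in OPC against postnatal NSC (adjusted p = 0.0112) and -0.73 ± 0.59 in adult NSC (adjusted p = 0.311). Hist1h2bj had 0.231 to 0.612 CPM in postnatal OPC, 0.312 to 1.26 CPM in adult NSC, and 0.870 to 2.73 CPM in postnatal NSC. It fell in OPC (-2.02 ± 0.48, adjusted p = 0.00446) and in adult NSC (-1.53 ± 0.47, adjusted p = 0.0157), the second call being lost without adult replicate 2. In both genes the highest adult value was that of adult replicate 1, and without it Hist1h2ba was called lower in adult NSC as well (-1.85, adjusted p = 0.0164).

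The H4 sum of adult NSC was not below that of postnatal NSC. The summed level of the 13 H4 genes was 9.44, 10.6, 6.80 and 7.40 CPM in postnatal OPC, 19.4, 23.2, 16.5 and 18.5 CPM in adult NSC, and 14.5, 23.2, 17.3 and 14.3 CPM in postnatal NSC. All 6 tested H4 genes fell in OPC against postnatal NSC, while in adult NSC 2 fell, 1 rose and 3 did not pass. Of these 6, 4 were tested only through postnatal NSC, and the other 2 are Hist1h4i and Hist1h4k. H4 genes made up 6.28% of the summed CPM of the set in OPC, 15.1% in adult NSC and 5.53% in postnatal NSC (means of 4 libraries), with adult libraries between 13.9% and 17.6% and all others at 7.82% or below. This rested on Hist1h4i (ENSMUSG00000060639.5, chr13:22040636-22041362, minus strand), which held 67.5% of the H4 sum and was the 1 gene of the set called higher in adult than in postnatal NSC.

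Hist1h4i had 5.76, 6.69, 4.84 and 5.28 CPM in postnatal OPC, 15.99, 16.8, 14.4 and 14.99 CPM in adult NSC, and 7.38, 11.6, 10.3 and 8.25 CPM in postnatal NSC. None of the 3 groups overlapped another. The log2 fold change was 0.73 ± 0.16 in adult NSC against postnatal NSC (adjusted p = 0.00247), -0.73 ± 0.16 in OPC against postnatal NSC (adjusted p = 0.00296) and -1.46 ± 0.16 in OPC against adult NSC (adjusted p = 1.87e-05). Its stem-loop, shown above, is shared with Hist2h4 alone, and 28.9% of its 50-base stretches occur in other genes. Hist1h4k, the next H4 gene by level per kb, had 0.336 to 1.06 CPM in postnatal OPC, 0.338 to 0.935 CPM in adult NSC, and 1.44 to 2.91 CPM in postnatal NSC, and it fell in both (log2 fold change -1.50 ± 0.38 and -1.75 ± 0.40, adjusted p = 0.00723 and 0.00306). Hist1h4h had 0.115 to 0.387 CPM in postnatal OPC, 0.225 to 0.883 CPM in adult NSC, and 0.746 to 1.28 CPM in postnatal NSC. It passed the filter only through postnatal NSC, which favoured a fall. It fell in OPC (-1.86 ± 0.42, adjusted p = 0.00341), and its adult value was -0.86 ± 0.39 (adjusted p = 0.0821). With the replicate block the adult difference passed (-0.93, adjusted p = 0.043), as it did without adult replicate 2 (-1.24, adjusted p = 0.0324).

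The H3 genes were the lowest class in sum, with 6.03 ± 2.67 CPM in postnatal OPC, 4.23 ± 1.06 CPM in adult NSC and 13.0 ± 3.72 CPM in postnatal NSC (SD, n = 4 each). Of 7 tested, 4 fell in OPC and 6 in adult NSC against postnatal NSC. The 3 that did not pass the filter through postnatal NSC alone gave 2 of the falls in each. Hist2h3c2 had 2.08, 5.34, 2.42 and 1.35 CPM in postnatal OPC, 2.07, 1.56, 0.957 and 1.97 CPM in adult NSC, and 3.68, 6.11, 8.04 and 3.06 CPM in postnatal NSC. It fell in adult NSC (log2 fold change -1.67 ± 0.44, adjusted p = 0.00756), and in OPC, where replicate 2 was the highest library, its value was -0.89 ± 0.42 (adjusted p = 0.104). Without that library the OPC difference was -1.45 (adjusted p = 0.0091), and it also passed with the G1/S covariate described below (-0.78, adjusted p = 0.0152).

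Hist1h3g was the 1 tested H3 gene that passed in OPC but not in adult NSC, and it carries a loop of its own among the stem-loops above. It had 0.145, 0.326, 0.461 and 0.144 CPM in postnatal OPC, 0.655, 0.676, 0.619 and 0.740 CPM in adult NSC, and 0.720, 1.07, 0.751 and 1.37 CPM in postnatal NSC. OPC libraries lay below all others, with log2 fold changes of -1.86 ± 0.37 against postnatal NSC and -1.32 ± 0.40 against adult NSC (adjusted p = 0.00165 and 0.015). No OPC library of Hist1h3g reached the filter's level of 0.481 CPM, so the filter favoured both falls. Hist2h3b had 0.240 to 1.10 CPM in postnatal OPC, 0.247 to 0.468 CPM in adult NSC, and 0.596 to 2.39 CPM in postnatal NSC. It passed the filter only through postnatal NSC, which favoured a fall. It fell in adult NSC (-2.26 ± 0.54, adjusted p = 0.004) and in OPC (-1.44 ± 0.49, adjusted p = 0.0302). The OPC call was lost at equal depth (adjusted p = 0.0501) and with 2 groups only (adjusted p = 0.0717). It was also lost without OPC replicate 1, 3 or 4 or postnatal NSC replicate 2 or 3. All 488 bases of Hist2h3b lie opposite the exons of the antisense gene Gm20628, and all its 50-base stretches occur in another gene, so its counts are uncertain.

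Of 11 tested H2A genes, 5 fell in OPC and 9 in adult NSC against postnatal NSC. Of these 11, 8 passed the filter only through postnatal NSC and gave all 5 falls in OPC and 7 of those in adult NSC. Of the other 3 (Hist1h2ac, Hist2h2aa2 and Hist3h2a), none fell in OPC and 2 fell in adult NSC. The summed level was 19.0 ± 6.26 CPM in postnatal OPC, 14.3 ± 2.71 CPM in adult NSC and 27.5 ± 9.73 CPM in postnatal NSC (SD, n = 4 each). OPC overlapped postnatal NSC in this sum. Over H2A genes that share under 50% of their stretches with other genes, the log2 fold of the sum was 0.01 in OPC, beside -0.53 over all of them. These genes were Hist1h2ac, Hist1h2ae, Hist3h2a and Hist1h2aa, the last with no count. Hist3h2a alone held 40.5% of the summed CPM of all H2A genes, so the value of 0.01 rests mainly on it.

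Hist2h2aa2 had the highest level per kb of the H2A genes. It had 4.74, 6.28, 4.09 and 2.07 CPM in postnatal OPC, 4.31, 4.11, 2.31 and 4.81 CPM in adult NSC, and 7.58, 7.83, 12.9 and 4.17 CPM in postnatal NSC. The groups overlapped. It was called lower in adult NSC (log2 fold change -1.07 ± 0.38, adjusted p = 0.0313), a call that was lost with the replicate block (-0.97, adjusted p = 0.065) and without adult replicate 1, 2 or 3 or postnatal NSC replicate 3. In OPC its value was -0.92 ± 0.37 (adjusted p = 0.0627), which passed with DESeq2 (adjusted p = 0.0347), at equal depth (adjusted p = 0.0436) and without OPC replicate 2 or postnatal NSC replicate 4 (adjusted p = 0.0275 and 0.0176). Its copy Hist2h2aa1 had no count in any library, and neither did Hist2h3c1. Of their exons, 529 of 586 bases and 1825 of 1825 bases lie within exons of Gm20634 on the same strand. The level of Hist2h2aa2 may therefore hold reads of more than 1 copy, since all its stretches occur in another gene.

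Hist3h2a, which lies next to Hist3h2ba, had 7.36, 14.96, 8.88 and 7.73 CPM in postnatal OPC, 7.91, 6.13, 6.53 and 6.48 CPM in adult NSC, and 4.69, 6.33, 14.5 and 7.01 CPM in postnatal NSC. No comparison passed, with log2 fold changes of 0.26 ± 0.32 in OPC and -0.27 ± 0.33 in adult NSC against postnatal NSC (adjusted p = 0.533 and 0.513). Without postnatal NSC replicate 3, the OPC value was 0.69 and passed (adjusted p = 0.0369), and without OPC replicate 2 it was -0.05. Of its exon bases, 708 of 2146 also belong to Trim17 on the same strand. Hist1h2ai and Hist1h2ah, low H2A genes of the Hist1 cluster, had at most 0.571 CPM in any OPC or adult library. Both passed the filter only through postnatal NSC, which favoured a fall. Their log2 fold changes were -1.80 and -1.96 in OPC and -2.17 and -2.39 in adult NSC against postnatal NSC (adjusted p = 0.0093, 0.00534, 0.00406 and 0.00219). OPC libraries of Hist1h2ai overlapped those of postnatal NSC. Of the 50-base stretches of Hist1h2ai and Hist1h2ah, 90.1% and 92.1% occur in other genes, so their counts are uncertain.

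Most tested genes lie in the Hist1 cluster. Its summed level was 99.9 ± 17.3 CPM in postnatal OPC, 106 ± 7.99 CPM in adult NSC and 280 ± 48.5 CPM in postnatal NSC (SD, n = 4 each). In Hist1, 31 of 37 tested genes fell in OPC, and 26 fell and 1 rose in adult NSC. Of the 19 Hist1 genes that did not pass the filter through postnatal NSC alone, 18 fell in OPC, and 13 fell and 1 rose in adult NSC. The Hist2 cluster had 16.5 ± 4.83 CPM in postnatal OPC, 13.1 ± 1.69 CPM in adult NSC and 22.7 ± 9.06 CPM in postnatal NSC, with overlapping libraries, and of 4 tested genes 1 fell in OPC and 3 in adult NSC. The 2 genes of Hist3 summed to 22.8 ± 11.8 CPM in postnatal OPC, 9.66 ± 0.57 CPM in adult NSC and 17.9 ± 6.96 CPM in postnatal NSC, where neither fell in OPC and Hist3h2ba fell in adult NSC. The log2 fold of the Hist3 sum in OPC against postnatal NSC was 0.35, and it was -0.08 without OPC replicate 2. Hist4h4 had at most 0.145 CPM in any library. Whether clusters differ was not tested.

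The summed level was unevenly divided among the kinds of annotated 3′ end. The genes were sorted by the transcript that reaches furthest past the stop codon: 23 had the stem-loop match with 100 bases or more annotated beyond it, 22 ended near the match, 5 had no match but a long end, and 17 had no match and a short end. The first set held 63.9% of the summed CPM of all 67 genes and the 5 long ones without a match held 22.6%, whereas those that end near the stem-loop held 8.41% and the short ones 5.05%. Per kb of exon, the medians were 0.734, 0.889, 2.81 and 0.957 CPM in the same order as the sorting, so the larger share came from a few genes. Of the 10 highest genes per kb, 6 had an extended or long end, compared with 28 of all 67. The polyadenylation signal AATAAA lay within the last 50 bases of at least 1 annotated transcript in 14 of the 67 genes, compared with 65.8% of all protein-coding genes. It did so in the transcript used for sorting in 12 genes (17.9%), which held 51.9% of the summed CPM, of which Hist1h1c alone held 38.1%. The median level was 0.824 CPM per kb for the genes with the signal and 0.900 CPM per kb for those without. Among these 12 are Hist1h1c, whose transcript runs 840 bases past its stem-loop, Hist3h2a, Hist3h2ba and Hist2h2be.

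The calls are given by 3′ end. In OPC against postnatal NSC, 11 of 15 tested genes with an extended end fell, 8 of 13 that end near the stem-loop, 4 of 5 with a long end and no match, and 9 of 10 with a short end. In adult against postnatal NSC the counts were 10 of 15 (with Hist1h4i higher), 9 of 13, 3 of 5 and 8 of 10. Of these genes, 3 of the 15, 9 of the 13, none of the 5 and 7 of the 10 passed the filter only through postnatal NSC, which favoured a fall. Among the rest, 8 of 12, 3 of 4, 4 of 5 and 3 of 3 fell in OPC, and 9 of 12, 2 of 4, 3 of 5 and 2 of 3 fell in adult NSC. The 4 that end near the stem-loop include Hist1h2bf and Hist1h3g, whose fall in OPC the filter also favoured. The summed level of genes ending near the stem-loop was 11.1 ± 3.51 CPM in postnatal OPC, 11.5 ± 1.72 CPM in adult NSC and 26.9 ± 5.70 CPM in postnatal NSC (SD, n = 4 each), without overlap with postnatal NSC.

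**Figure D4:**
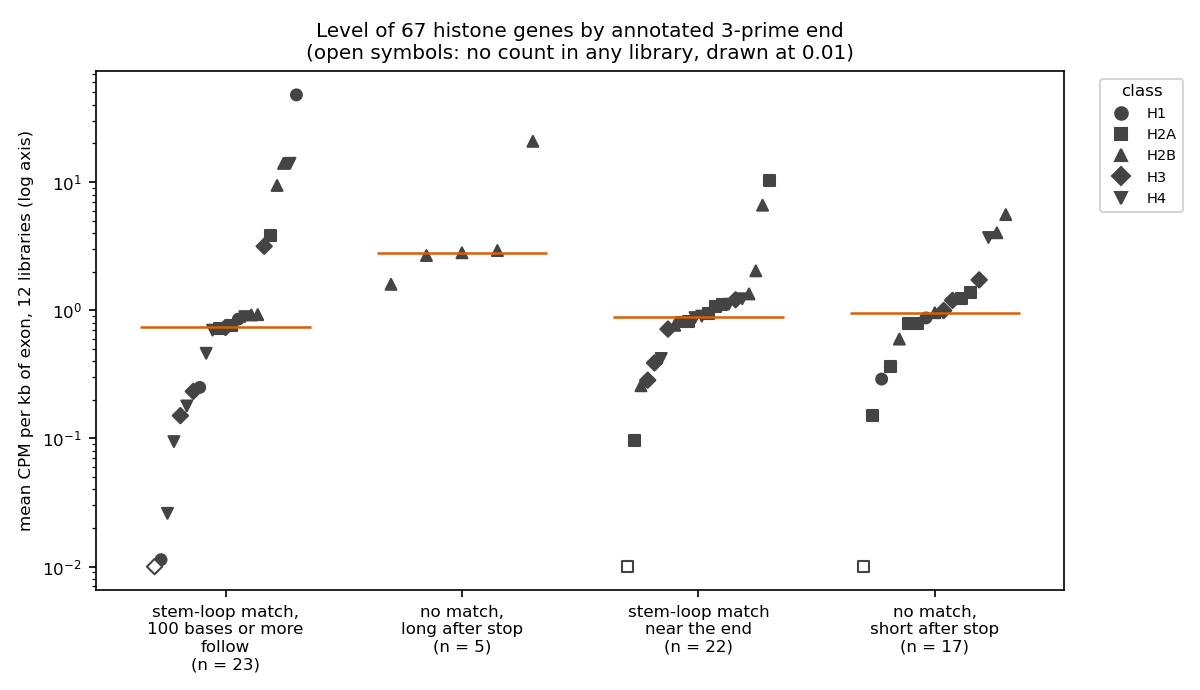
Mean CPM per kb of exon over the 12 libraries (log axis) for each of the 67 genes, by annotated 3′ end and class; orange lines are medians, and open symbols at 0.01 are the 3 genes with no count. Hist1h1c at 47.9 CPM per kb tops the set with an extended end and Hist1h2bc at 20.8 the set with a long end, while the medians of the 4 sets lie between 0.734 and 2.81.

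Many H2A and H2B genes are arranged in pairs that are transcribed away from each other from a shared promoter region. The annotation held 12 such pairs in this set, with 175 to 305 bases between the 2 genes. The H2B gene had the higher level per kb in all 12. In each pair, 129 to 144 exon bases of the H2A gene lie opposite another annotated gene, while the H2B gene overlaps none. The strand setting of the counting is not given, so reads may have been lost from the H2A genes alone, which was not tested. In the pair of Hist1h2ac and Hist1h2bc, 250 bases apart, the level was 0.717 and 20.8 CPM per kb, and in that of Hist1h2ae and Hist1h2bg, 175 bases apart, it was 0.755 and 9.41 CPM per kb. Both partners were tested in 8 pairs, in 7 of which the H2A gene passed the filter only through postnatal NSC. The 8 include Hist1h2ao with Hist1h2bq and Hist1h2ap with Hist1h2br. Their H2A genes held 204 and 200 counts in all and their H2B genes 2597 and 2606, so these 2 pairs are not separate measurements. Both partners fell in 5 pairs in OPC against postnatal NSC, Hist1h2ao with Hist1h2bq among them. Both partners fell in 5 pairs in adult NSC against postnatal NSC, each of the near-identical pairs among them. In OPC against adult NSC no H2A gene passed, and in 5 pairs neither partner did. Hist1h2ad and Hist1h2bf, 184 bases apart, both fell in OPC, but in adult NSC Hist1h2ad fell and Hist1h2bf did not pass. Where partners share stretches with other copies, the level of a single partner is uncertain.

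Promoter sequences from RefSeq (GRCm38.p6, 250 bases before to 50 after the start) were matched to 61 of the 67 genes. Each motif was searched on both strands, and motifs may overlap. CCAAT was found in 85.2% of the histone promoters and 37.4% of all 32851 promoters of that length. It was in every H1, H2A, H2B and H3 promoter and in 3 of 12 H4 promoters. TATAAA was in 57.4% of histone promoters and 13.6% of all, TTTGCAT (the core of the octamer motif) in 23.0% and 4.63%, and AAACACA (the H1 box) in 14.8% and 7.18%. Of the 9 histone promoters with AAACACA, 5 belong to the 6 H1 genes, and of the 14 with TTTGCAT, 13 belong to H2A and H2B genes. The H2A and H2B partners of a pair lie close enough for their windows to overlap, so 1 motif can be counted for both genes. The promoters of the 4 genes with contrasting orders of the groups are printed 5′ to 3′ on the gene's strand, with these motifs in capitals.
Hist1h1c, lower in both OPC and adult NSC, chr13:23738557-23738856, plus strand: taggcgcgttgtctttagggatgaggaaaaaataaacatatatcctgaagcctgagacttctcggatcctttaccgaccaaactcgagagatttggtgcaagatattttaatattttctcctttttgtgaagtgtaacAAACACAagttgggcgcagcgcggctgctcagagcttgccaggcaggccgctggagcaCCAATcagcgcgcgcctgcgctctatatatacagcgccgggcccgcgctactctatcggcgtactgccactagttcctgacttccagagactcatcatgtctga
Hist1h2bg, lower in OPC, chr13:23571150-23571449, plus strand: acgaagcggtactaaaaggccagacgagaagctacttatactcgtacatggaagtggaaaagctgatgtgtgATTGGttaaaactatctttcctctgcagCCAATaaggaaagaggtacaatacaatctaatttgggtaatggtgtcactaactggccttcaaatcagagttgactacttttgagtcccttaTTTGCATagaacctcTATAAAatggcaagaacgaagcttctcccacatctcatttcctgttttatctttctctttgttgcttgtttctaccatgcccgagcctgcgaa
Hist1h4i, highest in adult NSC, chr13:22041313-22041612, minus strand: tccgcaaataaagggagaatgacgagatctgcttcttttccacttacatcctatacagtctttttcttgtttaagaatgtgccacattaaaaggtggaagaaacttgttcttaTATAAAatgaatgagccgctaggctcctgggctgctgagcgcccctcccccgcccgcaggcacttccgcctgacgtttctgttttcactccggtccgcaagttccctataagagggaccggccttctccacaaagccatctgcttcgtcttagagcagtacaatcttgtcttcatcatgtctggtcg
Hist3h2ba, lower in adult NSC, chr11:58948661-58948960, plus strand: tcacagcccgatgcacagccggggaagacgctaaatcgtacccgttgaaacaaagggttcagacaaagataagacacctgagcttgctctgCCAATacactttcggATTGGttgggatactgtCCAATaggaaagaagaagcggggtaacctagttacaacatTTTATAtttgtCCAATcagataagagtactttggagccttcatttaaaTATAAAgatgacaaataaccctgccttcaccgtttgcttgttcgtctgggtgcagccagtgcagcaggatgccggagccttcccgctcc
The Hist1h1c window held the H1 box and 1 CCAAT, that of Hist1h2bg held 2 CCAAT with TTTGCAT and TATAAA, that of Hist1h4i held TATAAA alone, and that of Hist3h2ba held 4 CCAAT and 2 TATAAA. A match is a description of these letters and not of a bound site.

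The genes of the pathways around histone supply are given from lists grouped by role. Of 24 G1/S and DNA replication genes, Ccne2 rose in OPC (log2 fold change 1.63 ± 0.54, adjusted p = 0.0268) and in adult NSC (1.81 ± 0.54, adjusted p = 0.0143) against postnatal NSC, and the other 23 did not pass in either. The OPC call was lost without OPC replicate 1, 3 or 4 or postnatal NSC replicate 2 (adjusted p up to 0.0785). The proliferation marker Mki67 had log2 fold changes of 0.28 ± 0.21 in OPC (adjusted p = 0.299) and 0.67 ± 0.21 in adult NSC (adjusted p = 0.0182). In OPC it passed without OPC replicate 2 (0.46, adjusted p = 0.00948). It also passed there without both that library and postnatal NSC replicate 3 (0.37, adjusted p = 0.00217). Of 16 mitotic genes 2 rose in OPC and 3 in adult NSC, and none fell, where 22.4% and 25.2% of all genes tested rose. The spindle motor gene Kif11 rose in both (0.77 and 1.01, adjusted p = 0.0172 and 0.00348), the OPC call being lost without OPC replicate 3 or 4 or postnatal NSC replicate 2 (adjusted p up to 0.0558). The median log2 fold change of the 24 replication genes was 0.30 in OPC and 0.51 in adult NSC, beside -0.01 and -0.03 over all genes tested.

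Among 8 genes of histone gene transcription, Npat, the coactivator that switches on these genes in S phase, rose in OPC (log2 fold change 0.75 ± 0.11, adjusted p = 0.000244) and in adult NSC (0.69 ± 0.11, adjusted p = 0.000405) against postnatal NSC. Both Npat calls held in all 20 alternatives. Yy1 rose in adult NSC (0.61, adjusted p = 0.000994). Its OPC value was 0.32 (adjusted p = 0.0392), a call lost in 11 of 20 alternatives, among them those without OPC replicate 1, 2 or 4, adult replicate 1, 2 or 3, or postnatal NSC replicate 2 or 3 (adjusted p up to 0.165). Gon4l was lower in adult NSC (-0.23, adjusted p = 0.0319), a call lost with the replicate block (adjusted p = 0.0639) and without any 1 adult library (adjusted p up to 0.0923). Of 13 genes of histone mRNA 3′ processing, 5 rose and 2 fell in OPC, and 5 rose and none fell in adult NSC, where 45.1% and 53.1% of all genes tested passed in either direction. Casp8ap2, a component of the cleavage complex, rose by 1.13 ± 0.21 in OPC and 1.12 ± 0.21 in adult NSC on the log2 scale (adjusted p = 0.000938 and 0.000895), and the U7 snRNP gene Lsm11 rose by 0.70 and 0.56 (adjusted p = 0.0137 and 0.0349). The Lsm11 call in OPC was lost without OPC replicate 1 (adjusted p = 0.0522), and that in adult NSC in 10 of 20 alternatives, among them those without any 1 adult library or postnatal NSC replicate 1, 2 or 3 (adjusted p up to 0.0834). Slbp, the stem-loop binding protein gene, had 57.5 ± 18.5 CPM in postnatal OPC, 70.3 ± 3.59 CPM in adult NSC and 47.4 ± 9.98 CPM in postnatal NSC (SD, n = 4 each). Its log2 fold change was 0.28 ± 0.22 in OPC (adjusted p = 0.329) and 0.57 ± 0.22 in adult NSC (adjusted p = 0.0482), a call that was lost in 11 of 20 alternatives, among them those without OPC replicate 1, 3 or 4, any 1 adult library, or postnatal NSC replicate 1, 2 or 3. In OPC, Slbp passed without OPC replicate 2 (0.46, adjusted p = 0.0164). It also passed there without both that library and postnatal NSC replicate 3 (0.37, adjusted p = 0.0111). Sympk, a scaffold of the cleavage complex, and Lsm10 of the U7 snRNP fell in OPC (-0.31 and -0.44, adjusted p = 0.0179 and 0.043). The Sympk call was lost without OPC replicate 3 or 4 (adjusted p = 0.0532 and 0.0582). The Lsm10 call was lost in 11 of 20 alternatives, among them those without OPC replicate 1, 3 or 4, any 1 adult library, or postnatal NSC replicate 2 or 3 (adjusted p up to 0.116). Of 7 genes of histone mRNA decay, 2 rose in OPC and 3 in adult NSC, Tut4 among them (0.89 ± 0.09 and 0.47 ± 0.09), and none fell. Over all genes tested, 22.4% rose in OPC and 25.2% in adult NSC.

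Among 18 chaperones and assembly factors, 2 rose and 2 fell in OPC, and 6 rose and 2 fell in adult NSC. Over all genes tested, 45.1% and 53.1% passed in either direction in these comparisons. Supt16, a subunit of the nucleosome-handling complex FACT, rose in both (0.57 and 0.43), and Cabin1 of the HIRA complex fell in both (-0.57 and -0.22). The adult call was lost for Supt16 without adult replicate 3 or postnatal NSC replicate 1, 2 or 3, and for Cabin1 without adult replicate 1 or 3 (adjusted p up to 0.0753 and 0.0702). Hat1, which acetylates new H4, had a log2 fold change of 0.96 ± 0.34 in adult NSC against postnatal NSC (adjusted p = 0.0316) and of -1.02 ± 0.34 in OPC against adult NSC (adjusted p = 0.0253). The first call was lost without any 1 adult library or postnatal NSC replicate 2 or 3 (adjusted p up to 0.0853), the second without OPC replicate 1 or adult replicate 3 (adjusted p = 0.0522 and 0.0534). Its partner Rbbp7 had 0.85 ± 0.25 and -0.79 ± 0.25 (adjusted p = 0.0119 and 0.0177). Of the 11 replication-independent histone genes, 4 rose and 3 fell in OPC, and 2 rose and 6 fell in adult NSC, beside the same shares of all genes tested. The linker variant H1fx fell in both (-0.99 ± 0.15 and -1.73 ± 0.15, adjusted p = 0.00021 and 6.62e-06), and H2afj fell in OPC (-1.02 ± 0.17, adjusted p = 0.000399). H2afy2 was higher in OPC than in postnatal NSC (0.65 ± 0.07, adjusted p = 2.15e-05) and than in adult NSC (1.21 ± 0.07, adjusted p = 1.03e-07).

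Beyond the groups, 2 libraries stood apart. The mean log2 CPM of the 24 G1/S and DNA replication genes was 4.52 in OPC replicate 2 and 4.80 in postnatal NSC replicate 3, compared with 5.78 to 6.63 in the other 10. In both, the histone sum was the highest of its group, 179 CPM among OPC and 415 CPM among postnatal NSC. Of the 43 tested histone genes, 26 were at their group's highest in OPC replicate 2 and 23 in postnatal NSC replicate 3, beside 38.3% and 35.5% of all genes tested. Without both libraries, or with the G1/S level as a covariate, no called fold change of a histone gene named here changed its sign, although Hist1h1e lost its call in OPC against adult NSC without both (adjusted p = 0.0976) and Hist2h2aa2 lost its call in adult NSC under each of these settings (adjusted p = 0.0612 and 0.124). Hist1h2bj lost its adult call under the covariate (adjusted p = 0.067). Hist3h2ba, Hist2h2aa2 and Hist2h3c2 passed in OPC against postnatal NSC under the covariate (0.47, -0.75 and -0.78, adjusted p = 0.0117, 0.0381 and 0.0152), and Hist2h3c2 also without both libraries (-1.15, adjusted p = 0.0151), as did Hist2h2be (0.46, adjusted p = 0.0248).

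**Figure D5:**
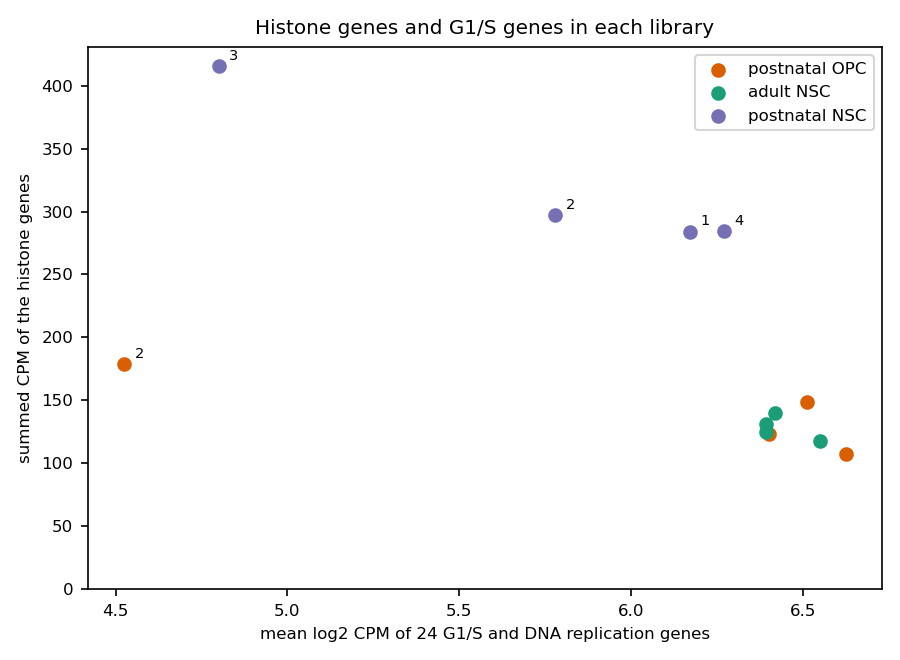
Summed CPM of the 67 histone genes against the mean log2 CPM of 24 G1/S and DNA replication genes, one point per library and one colour per group; the 5 libraries below 6.3 on the x axis are numbered by replicate. Postnatal NSC lies at 284 CPM or above at every G1/S level, and within postnatal OPC and postnatal NSC the library with the lowest G1/S level has the highest histone sum.

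OPC marker genes summed to 10128 to 12566 CPM in postnatal OPC, 5117 to 5420 CPM in adult NSC and 5207 to 6324 CPM in postnatal NSC, and 6 of 8 rose in OPC against postnatal NSC. The 8 neural stem cell markers did not follow the labels in the same way. They summed to 5348 to 8816 CPM in postnatal OPC, 9629 to 10266 CPM in adult NSC and 8167 to 8770 CPM in postnatal NSC. In OPC 2 rose and 4 fell against postnatal NSC, and 4 were higher and 3 lower than in adult NSC. The 6 neuroblast and neuron markers summed to 81.8 to 231 CPM in postnatal OPC, 18.3 to 27.6 CPM in adult NSC and 47.5 to 124 CPM in postnatal NSC; of the 5 tested, 3 rose in OPC, and 4 fell and 1 rose in adult NSC. Of the other cell types, the 5 mature oligodendrocyte markers summed to 32.7 to 103 CPM in postnatal OPC, 13.5 to 15.2 CPM in adult NSC and 40.3 to 440.3 CPM in postnatal NSC. The 5 astrocyte markers summed to 471 to 855 CPM in postnatal OPC, 1167 to 1276 CPM in adult NSC and 908 to 1758 CPM in postnatal NSC, and 3 of 5 fell in each group against postnatal NSC. The 5 endothelial markers summed to 2.13 to 3.55 CPM in postnatal OPC, with Cldn5 and Cdh5 at 0, to 14.5 to 15.1 CPM in adult NSC and to 4.63 to 15.7 CPM in postnatal NSC. The 5 pericyte and fibroblast markers summed to 0.721 to 9.34 CPM in postnatal OPC and 3.77 to 6.48 CPM in adult NSC, with Lum at 0 in both, and to 8.92 to 15.1 CPM in postnatal NSC. The 5 ependymal markers summed to 9.38 to 16.9 CPM in postnatal OPC and 19.6 to 20.99 CPM in adult NSC, with Pifo and Tmem212 at 0 in both, and to 38.4 to 50.6 CPM in postnatal NSC. The 5 microglial markers summed to at most 1.97 CPM in any library, with Cx3cr1 at 0 in all. Over all genes tested, 22.4% rose and 22.7% fell in OPC, and 25.2% rose and 27.9% fell in adult NSC, each against postnatal NSC. In OPC against adult NSC, 26.3% rose and 24.7% fell. The part of these cell types in the histone differences was not tested.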

How the data were processed

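Gene counts of 12 poly(A)-selected RNA libraries (TruSeq Stranded mRNA) were used as deposited: raw counts per gene, made with STAR and featureCounts 1.22.2 on GRCm38 per the submitters' processing notes. The annotation release, strand setting and handling of reads that match several genes are not given in the sources used here, so counts of near-identical or overlapping histone genes may be split, shared or dropped. The genes and gene lists were chosen with earlier results of these data known.

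Symbols, transcripts and coordinates came from GENCODE M21 and promoters from RefSeq. Genes with low counts were removed (filterByExpr, minimum count 10, minimum total 15), leaving 16135 genes. All 12 libraries were fitted with edgeR 4.0.16 (R 4.3.3, TMM, quasi-likelihood test), with Benjamini-Hochberg adjustment over all tested genes and a threshold of 0.05. Adjusted p-values in the text are from this fit or, where an alternative is named, from the same test refitted. The value marked DESeq2 is from DESeq2. The fit was tested on simulated data. Biological coefficient of variation was 22.6%. CPM are TMM-scaled, and sums were described without a test. Library totals are given with the results. The replicates are separate litters per the labels.

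The genes given with values are the 3 tested genes of each class with the highest CPM per kb, the 5 largest passing rises and 5 largest passing falls of each comparison, passing genes against the main direction and all tested H1 genes; of the other lists, up to 4 passing genes a direction, and Slbp, Npat and Mki67. Alternatives were no filter, DESeq2 1.42.0, 2 groups only, equal depth, a replicate block, a G1/S covariate, genes with little shared sequence and leaving out libraries. Python 3.11.15 was used for sequence searches.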

Additional observations from a re-analysis of the deposited data

Results flagged for a closer look

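In groups of 4 libraries, 1 value stood far from the other 3 in 8 of 90 groups examined, where chance gives about 1 in 20. Postnatal NSC replicate 3 stood above its group in the summed level of all 67 genes, at 415 CPM against 284 to 297 CPM, and in that of Hist1, at 352 CPM against 253 to 257 CPM. OPC replicate 2 stood above its group in Hist3h2ba, at 25.4 CPM against 7.49 to 9.97 CPM, and in the Hist3 sum, at 40.3 CPM against 15.2 to 18.8 CPM. These are the libraries with the lowest G1/S levels.

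Adult NSC replicate 1 stood above its group in Hist1h2ba, at 0.982 CPM against 0.104 to 0.225 CPM. It did so too in Hist1h2bj, at 1.26 CPM against 0.312 to 0.450 CPM, and in Hist1h2ah, at 0.382 CPM against 0.113 to 0.156 CPM. Postnatal NSC replicate 2 stood below its group in Hist1h1c, at 106 CPM against 151 to 158 CPM.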

How the results depend on the processing

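In OPC against postnatal NSC, adult against postnatal NSC and OPC against adult NSC, the counts of falls stayed within 1.5 times of 32, 30 and 5 in every alternative run except 1. In that one, among the 20 tested genes that share under 50% of their stretches, 16, 11 and 3 fell. The log2 fold of the Hist2 sum in adult against postnatal NSC was then -0.010, compared with -0.79, while in OPC against postnatal NSC it was 0.24, compared with -0.46. Of Hist2, only Hist2h2be and the untested Hist2h4 remained there, so this sum is mainly the level of Hist2h2be and does not describe the cluster. Leaving out 1 library gave 28 to 37, 25 to 32 and 4 to 6 falls. Genes called higher in OPC than in postnatal NSC numbered 0 to 2 when 1 library was left out, 1 with the G1/S covariate and 1 without both libraries of low G1/S level. Same-numbered replicates gave mixed correlations of their deviations from the group means (r from -0.363 to 0.325). In 4 of 12 pairings the best match was the same number. Between postnatal NSC and OPC, r was -0.171, 0.208, -0.363 and 0.325 for replicates 1 to 4. With the replicate block 31 genes fell in OPC and 31 in adult NSC against postnatal NSC.

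Differences that did not pass changed sign as follows, as log2 fold changes. In OPC against adult NSC, Hist1h1b was 0.034 with the replicate block and -0.40 to 0.89 with 1 library left out. Hist2h2aa2 was -0.16 with the G1/S covariate, -0.092 without both libraries, and -0.089 to 0.38 with 1 left out. Hist1h2ai was -0.033, -0.20 and -0.19 to 0.69 in the same settings. With 1 left out, Hist1h1d ran from -0.028 to 0.24 and Hist1h2bj from -0.72 to 0.13. In OPC against postnatal NSC, Hist3h2a ran from -0.052 to 0.69 and Hist3h2ba from -0.16 to 0.62. In adult against postnatal NSC, Hist3h2a was 0.24 with the covariate, 0.16 without both libraries and -0.49 to 0.17 with 1 left out, and Hist1h2bc was 0.086 with the covariate. The cause was not tested. Counting near-identical genes once was chosen after seeing the data. Poly(A) selection, few counts in many genes and shared sequence limit the levels of single genes.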
